A study of Mus musculus and Homo sapiens with 33 samples.

Results

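The genes described here encode the subunits of oxidative phosphorylation. They were followed in KPL cells, a mouse lung adenocarcinoma line, with and without 4-hydroxytamoxifen, which is given to delete Lin9. Members were taken by gene symbol alone: the Nduf genes of series a, b, c, s and v, Sdha to Sdhd, the Uqcr genes, Cox4 to Cox8, the Atp5 genes, and the mt-Nd, mt-Co, mt-Atp and mt-Cytb genes of mitochondrial DNA, without symbols marked as pseudogenes. Of 38924 gene IDs in the count table, 98 were chosen in this way. The nucleus encodes 85 of them and mitochondrial DNA 13. By symbol, 44 belong to complex I, 4 to complex II, 9 to complex III, 21 to complex IV and 20 to complex V. Symbols follow the annotation of the table and not always the present assignment: Ndufa4, counted here with complex I, is now regarded as a subunit of complex IV, and Cox7a2l acts in the assembly of supercomplexes. Atp5s and Atp5sl, counted with complex V, are named Dmac2l and Dmac2 in RefSeq, and the latter is known as an assembly factor of complex I. Atp5l2 is classed as a pseudogene there and was kept because its symbol in the table does not say so.

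The series holds 33 samples, and the 6 libraries of polyadenylated RNA were used, while its 27 ChIP-seq samples were not analysed here. Control cells, labelled ctrl and EtOH, gave 3 libraries. Cells given 4-hydroxytamoxifen (4-OHT) for 72 hours, at a dose the labels write as 10 nm, gave the other 3. All 6 come from the same line in the same medium, and the labels state that 4-OHT serves to delete Lin9, a core subunit of the MuvB complex, which binds cell cycle promoters. The labels name neither the Lin9 alleles nor the recombinase, nor whether KPL is 1 clone, and no 4-OHT library without the deletable gene was compared, so loss of Lin9 and the drug itself cannot be told apart. Nothing in them says that the libraries came from separate cultures, so the p-values rest on a spread among libraries that may be technical. In bulk RNA, fewer cells of a kind and less RNA per cell cannot be told apart either.

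Libraries held between 5859826 and 5913942 counted reads, so depth was nearly equal. The targeted gene was lower after 4-OHT: Lin9 had 124 to 159 reads in the control libraries and 101 to 108 after 4-OHT (log2 fold change -0.49, SE 0.11, edgeR adjusted p = 0.0011). The count spans the gene as a whole, including exons that a deletion may leave in place. Deletion in only part of the cells cannot be told apart from this. Epithelial genes were abundant, with Krt8 at 10633 or more reads and Epcam at 980 or more in each library. The alveolar markers Sftpc and Sftpa1 were listed at 0 in all 6, and Nkx2-1 had 25 to 46 reads. Some widely used genes, such as Cox4i1 and Ndufa13 below, were listed at 0 too, so a 0 is not read as absence. Summed over whole marker lists, fibroblast genes stood at 8.06 to 10.6 CPM (counts scaled by the library size) in control and 7.09 to 8.99 after 4-OHT. Endothelial genes stood at 8.04 to 10.6 against 9.62 to 9.84 CPM, and leukocyte genes at 15.8 to 19.7 against 17.0 to 22.6 CPM. Summed over the alveolar and epithelial list, genes stood at 4182 to 4225 CPM in control and 4110 to 4216 CPM after 4-OHT. Epcam fell by 0.38 and Cdh1 by 0.14 on the log2 scale (edgeR adjusted p = 4.4e-12 and 0.0010). Krt8 at 0.055, Krt18 at -0.0007 and Nkx2-1 at -0.46 were not called (edgeR adjusted p = 0.22, 0.99 and 0.20). The part of such differences in the results below was not tested.

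Oxidative phosphorylation is carried out in the inner mitochondrial membrane. Complexes I and II take electrons from NADH and succinate and pass them through coenzyme Q, complex III and cytochrome c to complex IV, which reduces oxygen, and complex V makes ATP from the resulting proton gradient. Complex II is encoded wholly in the nucleus, while the others combine nuclear subunits with subunits made inside the organelle, so that 2 genomes must supply matched parts. Nuclear respiratory factor 1, the ETS factor GABPA and YY1 are known activators of many of the nuclear genes.

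Promoter letters are shown first for 7 nuclear members. Of these, 3 are the members that rose (Cox5b, Ndufv3 and Sdhd), and Ndufa4, Sdha, Sdhb and Cox6a1 are members of the same complexes that were not called, chosen with their letters and values known. Each line gives the 200 bases before the RefSeq start of the gene in GRCm38.p6, 5′ to 3′ on the strand of the gene. Capitals mark matches to 3 searched motifs on either strand, GCATGCGC for the NRF1 core, CCGGAAG for ETS factors and AAGATGGC for YY1, and to the letters TTTGAA and TTCGAA of the cell cycle homology region (CHR) through which MuvB is known to bind.
Cox5b, chr1:36691287-36691486, plus strand: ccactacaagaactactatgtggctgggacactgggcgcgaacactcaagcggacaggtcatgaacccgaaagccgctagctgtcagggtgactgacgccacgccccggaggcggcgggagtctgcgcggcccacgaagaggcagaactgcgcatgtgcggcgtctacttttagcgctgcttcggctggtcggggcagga
Ndufv3, chr17:31519915-31520114, plus strand: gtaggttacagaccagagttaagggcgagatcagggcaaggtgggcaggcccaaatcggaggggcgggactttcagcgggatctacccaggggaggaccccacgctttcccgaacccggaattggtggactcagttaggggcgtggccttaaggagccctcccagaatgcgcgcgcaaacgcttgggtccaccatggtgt
Sdhd, chr9:50603850-50604049, minus strand: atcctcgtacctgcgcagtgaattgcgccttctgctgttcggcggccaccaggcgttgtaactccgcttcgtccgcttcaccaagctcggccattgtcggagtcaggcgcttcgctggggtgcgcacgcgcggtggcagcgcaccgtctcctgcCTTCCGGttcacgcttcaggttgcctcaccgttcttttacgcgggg
Sdhb, chr4:140961071-140961270, plus strand: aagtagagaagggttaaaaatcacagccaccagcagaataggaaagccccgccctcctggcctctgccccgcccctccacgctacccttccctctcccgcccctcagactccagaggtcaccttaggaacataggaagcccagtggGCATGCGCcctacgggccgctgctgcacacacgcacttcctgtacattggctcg
Sdha, chr13:74350241-74350440, minus strand: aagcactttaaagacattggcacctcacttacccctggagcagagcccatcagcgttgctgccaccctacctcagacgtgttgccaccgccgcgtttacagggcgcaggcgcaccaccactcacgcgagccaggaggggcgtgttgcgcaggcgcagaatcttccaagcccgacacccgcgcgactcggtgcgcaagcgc
Ndufa4, chr6:11907451-11907650, minus strand: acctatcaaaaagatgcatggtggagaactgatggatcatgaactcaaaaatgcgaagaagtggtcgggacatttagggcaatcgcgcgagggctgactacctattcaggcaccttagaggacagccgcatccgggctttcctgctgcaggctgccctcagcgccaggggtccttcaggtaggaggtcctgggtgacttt
Cox6a1, chr5:115348959-115349158, minus strand: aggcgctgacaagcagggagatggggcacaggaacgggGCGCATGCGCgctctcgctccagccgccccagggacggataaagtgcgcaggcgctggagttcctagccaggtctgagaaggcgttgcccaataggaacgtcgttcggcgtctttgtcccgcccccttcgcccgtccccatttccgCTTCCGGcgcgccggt
The stretches of Cox5b and Ndufv3, and likewise those of Sdha and Ndufa4, held no match to any of these letters. Sdhd held an ETS match on the minus strand, whose first base lies at -46 from the start. Sdhb held the NRF1 letters at -54, with an ETS match at 6 that lies outside the stretch shown, and Cox6a1 held them on both strands, at -162 and -160, in 1 overlapping run of palindromic letters, with an ETS match at -16. A match describes letters and is not a site.

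Over windows from 250 bases before to 50 after the start, 69 of the 85 nuclear members had a sequence in the RefSeq table. A gene with several windows was counted as a match if any of them held the letters. The NRF1 letters were present for 14.5% of these members, against 6.16% of 9003 tested genes and 3.05% of all 27025 genes with a window. YY1 letters were present for 15.9% of members, against 5.31% of tested genes. Most of these matches began after the start, from 22 for Ndufa3 to 38 for Ndufb8, while those of Atp5f1 and Atp5j began at -3 and -88. The letters hold ATG, and whether the matches lie over translation starts was not tested. The ETS letters, at 23.2% against 20.1%, were about as frequent as among tested genes. Of the CHR letters, TTTGAA was present for 10.1% of members against 14.3% of tested genes, and TTCGAA for 2.9% against 2.44%. These shares are descriptions of the windows, with no test. All 5 searches used both strands, and the NRF1 letters overlap their own reverse complement.

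Relative to the other counted RNA, messenger RNA of oxidative phosphorylation changed little after 4-OHT. Values are scaled to each library, so a change in total RNA per cell would not show. Of the 98 members, 88 passed the filter on low counts and were tested (75 nuclear and 13 mitochondrial). Of these, 3 rose and 0 fell at an adjusted p under 0.05, which is 3.41% of those tested, where 9.79% of all 13355 tested genes were called (edgeR quasi-likelihood test, Benjamini-Hochberg adjustment over all genes). In each direction the background was 4.61% for higher and 5.17% for lower genes. At an unadjusted p under 0.05, 7 members were lower and 7 higher, together 14 of 88, beside 21.2% of all genes. The limma-voom fit also called 3 higher and 0 lower, with a background of 9.65%. DESeq2 called 0 of the members, and an unadjusted p under 0.05 was reached by 1 below and 3 above control, where 11.9% of all genes reached it. At the adjusted threshold its background was 4.99% of the 11542 genes to which it gave an adjusted p. CPM values of the 2 groups did not overlap for 5 members that were higher and 3 that were lower after 4-OHT, where 12.1% and 12.2% of all tested genes did so.

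Sizes were small too. The median log2 fold change was 0.0044 over the tested members and 0.0005 over all tested genes, and the median of its absolute size was 0.052 for members against 0.099 for all genes. For 74 of the 88 members the 95% confidence interval of the change lay wholly within 1.25-fold in either direction, which held for 52.9% of all tested genes. For 87 it lay within 1.5-fold, and the exception was Ndufb2. Intervals of the members were also narrower: the median distance from the estimate to either bound was 0.14 on the log2 scale for members and 0.19 for all genes. Less precise estimates scatter more, so sizes and interval counts of members and all genes are not compared at equal precision. The part of precision in these differences was not tested. On simulated counts for this comparison, 54% of genes changed 1.25-fold and 82% of those changed 1.5-fold were recovered (50 genes each), so a change of 1.25-fold in a single member could be missed. The changed genes had expected counts of 20 or more, and all genes the same dispersion, so these shares may be too high for the data.

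**Figure D1:**
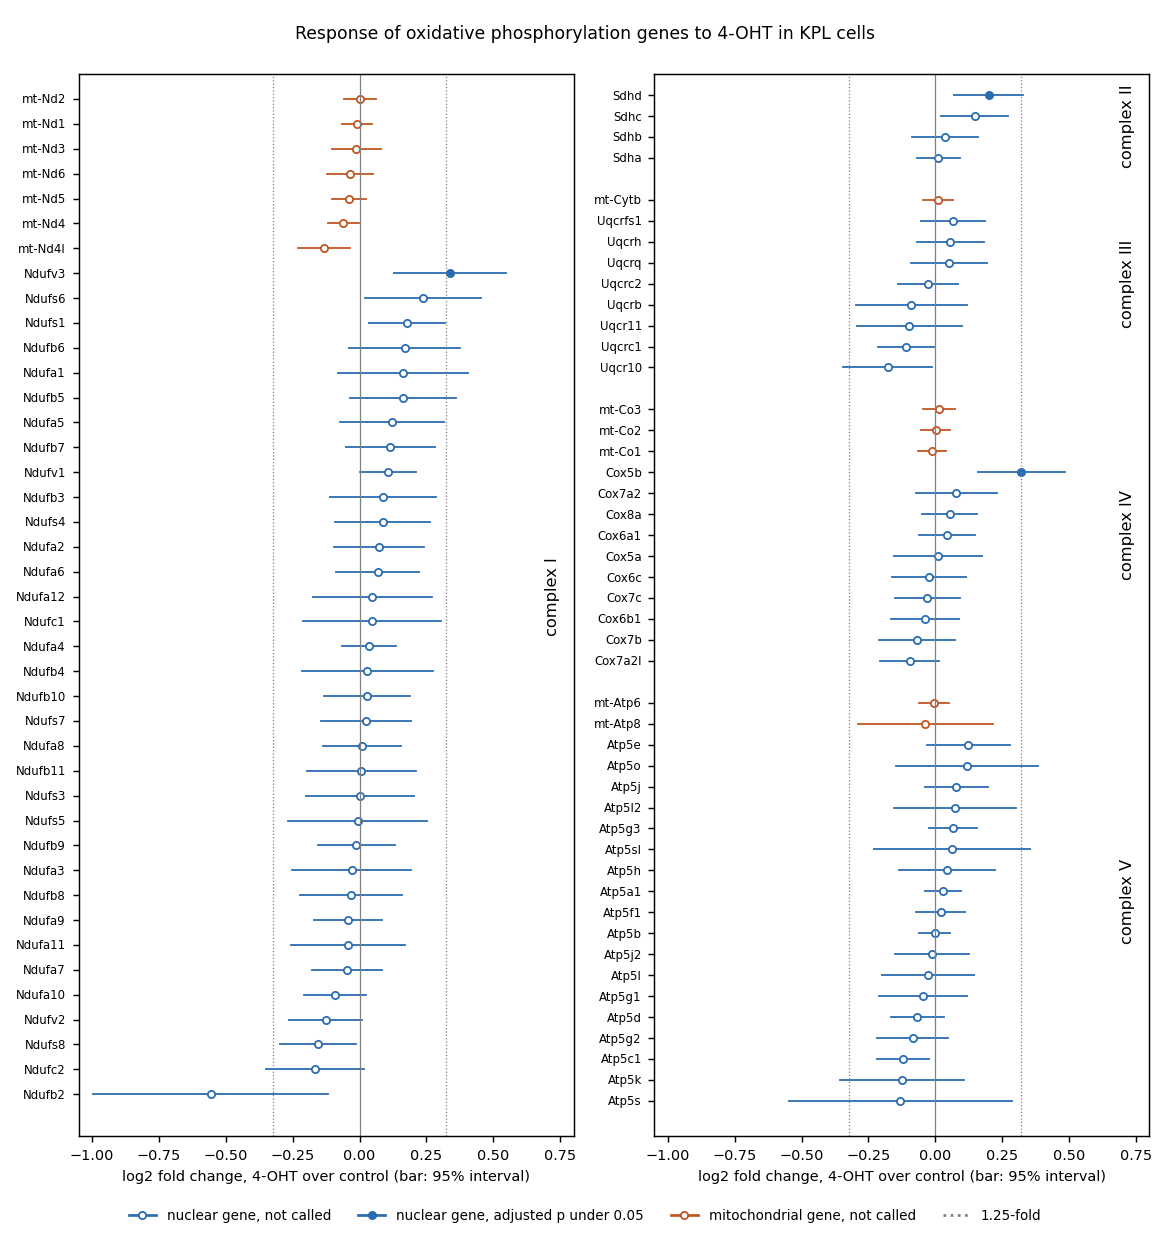
Log2 fold change of the tested members reported here, 4-OHT over control (horizontal axis), with its 95% confidence interval as a bar, by complex. Blue marks nuclear and orange mitochondrially encoded genes, filled points passed an adjusted p of 0.05, and dotted lines mark 1.25-fold. Cox5b, Ndufv3 and Sdhd are the filled points, and Ndufb2 has the lowest value at -0.56 with a wide bar.

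Cox5b showed the smallest p among the members. It encodes a zinc-binding nuclear subunit of complex IV (ENSMUSG00000061518, chromosome 1, 36691487 to 36693388 in GRCm38.p6). The control libraries had 219, 209 and 198 reads and the 4-OHT libraries 239, 271 and 282. Each 4-OHT library lay above each control library. The level rose from 35.8 ± 1.78 to 44.7 ± 3.77 CPM (SD, n = 3 each), 1.25-fold (log2 fold change 0.32 with SE 0.08, edgeR adjusted p = 0.0038). The call held with any 1 library left out, where the largest edgeR adjusted p was 0.045, and was lost with DESeq2 (adjusted p = 0.083). The other 9 tested nuclear genes of complex IV lay between -0.096 and 0.077 on the log2 scale, and none of them passed the test.

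Ndufv3 encodes an accessory subunit of the NADH-oxidising arm of complex I (ENSMUSG00000024038, chromosome 17, 31520115 to 31531326). It was counted at 127, 112 and 130 reads in control and at 158, 158 and 156 after 4-OHT. The 4-OHT libraries were almost equal and all above control. In CPM it rose from 21.1 ± 1.63 to 26.6 ± 0.16 (SD, n = 3 each), or by 0.34 on the log2 scale (SE 0.11, edgeR adjusted p = 0.025). Its neighbours in the same arm were not called: Ndufv1, which binds FMN, had a log2 fold change of 0.11 and Ndufv2 one of -0.13 (edgeR adjusted p = 0.22 and 0.28). The Ndufv3 call was lost with DESeq2 (adjusted p = 0.210) and in 5 of the 6 fits with 1 library left out. Those edgeR adjusted p-values were 0.064, 0.070 and 0.051 without 4-OHT replicates 1, 2 and 3, and 0.056 and 0.161 without control replicates 1 and 2.

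Sdhd encodes one of the 2 membrane anchors of complex II, succinate dehydrogenase (ENSMUSG00000000171, chromosome 9, 50596340 to 50603849). Reads were 374, 339 and 367 in control and 432, 403 and 420 after 4-OHT, and the groups did not overlap. The level rose from 61.7 ± 3.08 to 70.8 ± 2.66 CPM (SD, n = 3 each), or by 0.20 on the log2 scale (SE 0.06, edgeR adjusted p = 0.031). DESeq2 did not call it (adjusted p = 0.262). Leaving out 1 library ended the call for 4 libraries, with edgeR adjusted p-values of 0.133 and 0.075 without 4-OHT replicates 1 and 3, and 0.192 and 0.060 without control replicates 2 and 3.

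**Figure D2:**
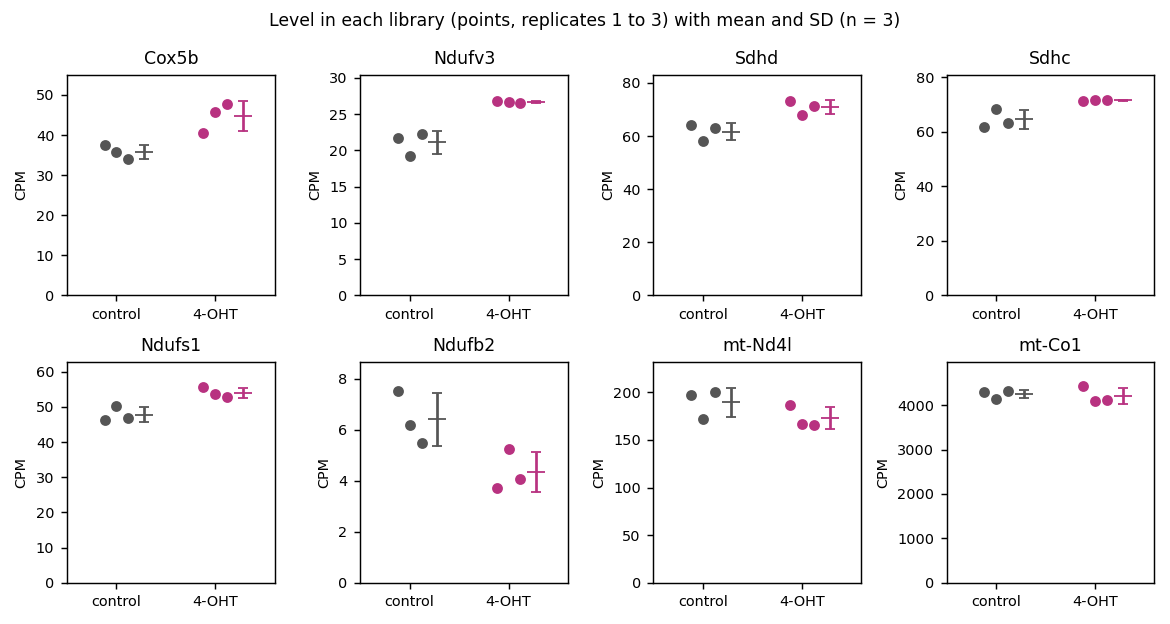
Level in CPM (vertical axis, from 0) of 8 members in each library, with mean and SD (n = 3) beside the points of control (grey) and 4-OHT (magenta). The 3 called genes, Sdhc and Ndufs1 lie higher in all 4-OHT libraries, Ndufb2 lies lower in all, and the groups of mt-Nd4l and mt-Co1 overlap.

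The authors' deposited table of the same comparison held 91 of the members, 2 of them with an FDR under 0.05, where 7.14% of its 17483 genes passed. Those 2 were Cox5b (log2 fold change 0.32, FDR 0.0035) and Ndufv3 (0.33, FDR 0.027) in the authors' deposited table. Sdhd stood at an FDR of 0.052 and mt-Nd4l at 0.057 there.

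Complex by complex, medians lay close to 0 except in complex II. Beside the edgeR counts below, 4.61% of all tested genes were higher and 5.17% lower. Complex I, the largest, had 42 tested members with 1 higher and 0 lower (at an unadjusted p under 0.05, 4 lower and 4 higher, DESeq2 0 called) and a median log2 fold change of 0.0044. Complex II had 4 tested members, 1 higher and 0 lower (DESeq2 0 called), and a median of 0.09. With so few genes, its count cannot be set against the share over all genes. Complex III had 9 tested members, none called by edgeR, DESeq2 or limma-voom (2 lower at an unadjusted p under 0.05 in edgeR), and a median of -0.027. Complex IV had 13 tested members, 1 higher, and a median of 0.0019. Complex V had 20 tested members, none called by any of the 3 tools (1 lower at an unadjusted p under 0.05 in edgeR), and a median of -0.0041.

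**Figure D3:**
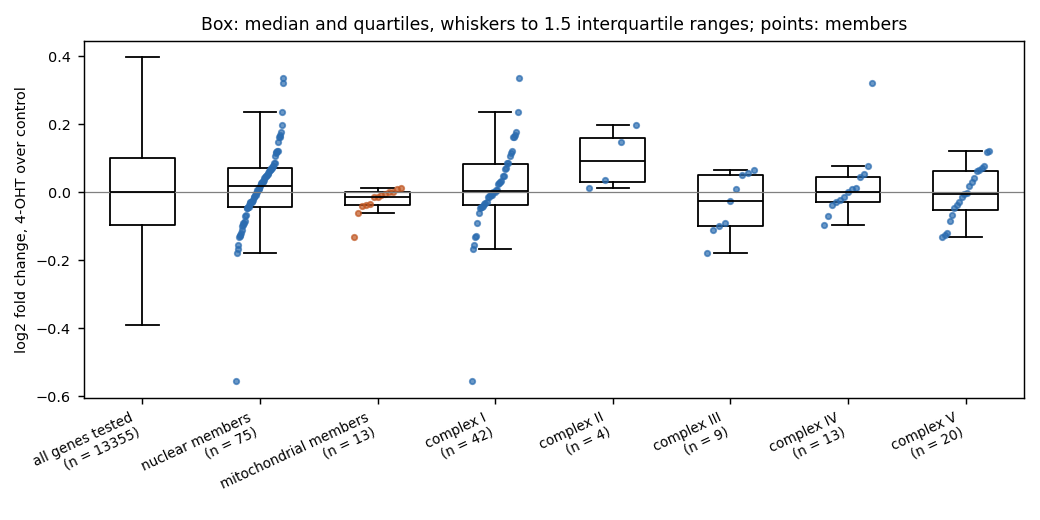
Log2 fold change, 4-OHT over control (vertical axis), for all tested genes, for nuclear and mitochondrial members and for each complex. Boxes give the median and quartiles, whiskers reach to 1.5 interquartile ranges, and points are single members, drawn for the member groups only. Boxes of the members are narrower than that of all genes, and the 4 genes of complex II all lie above 0.

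Within complex I the nuclear core subunits described here did not share a direction. Among the nuclear core subunits, a grouping taken from textbooks after the values were seen, the log2 fold changes of Ndufv1, Ndufv2, Ndufs1, Ndufs3, Ndufs7 and Ndufs8 ran from -0.15 for Ndufs8 to 0.18 for Ndufs1. Ndufs1, the largest iron-sulphur subunit, had 271, 292 and 274 reads against 328, 318 and 312 (edgeR adjusted p = 0.114). Ndufs8, another iron-sulphur subunit, had 310, 307 and 342 against 287, 292 and 293 (edgeR adjusted p = 0.185). Neither gene's groups overlapped, in opposite directions, and neither passed the test. Ndufa4 stood at 112 ± 1.32 CPM in control and 115 ± 4.47 CPM after 4-OHT (SD, n = 3 each).

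Ndufb2, an accessory subunit of the membrane arm chosen for description after its values were seen, had the lowest log2 fold change of the members. It was counted at 44, 36 and 32 reads in control and at 22, 31 and 24 after 4-OHT. The groups did not overlap, but the difference did not pass the test (log2 fold change -0.56, SE 0.22, edgeR adjusted p = 0.102). At so few reads its 95% interval ran from -0.995 to -0.12. Ndufa7, the remaining member with groups that did not overlap, differed by only -0.047 on the log2 scale (edgeR adjusted p = 0.76).

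In complex II the reads of Sdhc, the other membrane anchor, were 362, 399 and 370 in control and 421, 425 and 423 after 4-OHT. All 4-OHT libraries were above control, yet the difference did not pass (log2 fold change 0.15, SE 0.06, edgeR adjusted p = 0.137). The catalytic subunits were nearer to 0. Sdha, the flavoprotein, had 1250, 1374 and 1248 against 1355, 1314 and 1283 reads (log2 fold change 0.012, edgeR adjusted p = 0.92). Sdhb, the iron-sulphur subunit, had 422, 393 and 434 against 412, 448 and 436 (0.035, edgeR adjusted p = 0.82), and in both genes the groups overlapped. Summed over the 4 genes the level was 412.2 to 430.2 CPM in control and 434.8 to 444.3 CPM after 4-OHT, 1.05-fold by the means. It was the only complex whose sums did not overlap. Among single genes, 24.3% of all tested genes had groups that did not overlap, so this alone does not set complex II apart. Nuclear sums of complexes I, III, IV and V and mitochondrial sums of complexes I, III, IV and V all overlapped between the groups.

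Complex III showed no called member. Uqcrc1 and Uqcrc2, the core proteins and its most abundant nuclear genes by CPM, stood at 113 ± 5.99 and 92.6 ± 3.52 CPM in control and at 105 ± 5.23 and 90.9 ± 3.11 CPM after 4-OHT (SD, n = 3 each). Uqcrc1 had a log2 fold change of -0.11 (edgeR adjusted p = 0.21). In complex V the 2 nuclear genes with the highest CPM encode the catalytic head. Atp5b, the beta subunit, had 5512 to 5644 reads in control and 5496 to 5684 after 4-OHT, a log2 fold change of -0.0028 with a 95% interval from -0.061 to 0.055. Atp5a1, the alpha subunit, had 2531 to 2619 and 2569 to 2731 reads, a log2 fold change of 0.029. Both groups overlapped, and these intervals are among the narrowest of the nuclear members. The other nuclear genes counted with complex V by symbol ran from -0.13 for Atp5s to 0.12 for Atp5e.

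No mitochondrially encoded gene passed the test. Of the 13, 0 were called by edgeR, DESeq2 or limma-voom, beside 9.79%, 4.99% and 9.65% of all genes. At an unadjusted p under 0.05 in edgeR 2 were lower, beside 21.2% of all genes in either direction. With only 13 genes, these counts do not set the mitochondrial genes apart from all genes. Their median log2 fold change was -0.012, that of the 75 nuclear members was 0.020, and all 13 intervals lay within 1.25-fold. The difference of the medians, mitochondrial minus nuclear, was -0.03, less than its SD of 0.068 over the 3 4-OHT libraries. Members of mitochondrial DNA took 1.539%, 1.497% and 1.562% of the reads in control and 1.588%, 1.505% and 1.498% after 4-OHT. Nuclear members took 0.546% to 0.552% in control and 0.550% to 0.571% after 4-OHT. Among reads of members, the mitochondrial share was 73.0% to 74.1% in control and 72.4% to 74.3% after 4-OHT. All 3 shares overlapped between the groups.

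Mitochondrial genes shared much of their deviation within a library, in both groups. Relative to the control mean, 11 of the 13 were above it in control replicate 3 and 2 in control replicate 2. After 4-OHT, 10 were above it in replicate 1, 0 in replicate 2 and 1 in replicate 3. The medians of the 13 were 0.0024, -0.038 and 0.035 in the control libraries and 0.033, -0.046 and -0.034 after 4-OHT on the log2 scale. Nuclear members were highest in 4-OHT replicate 3, where 53 of 75 were above the control mean with a median of 0.061, against 35 and 41 in 4-OHT replicates 1 and 2. These genes share libraries and are not replicates of the treatment.

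mt-Nd4l, a small membrane subunit of complex I, came nearest to a call among the 13. It had 1150, 1001 and 1167 reads in control and 1098, 989 and 977 after 4-OHT. Control replicate 2 and 4-OHT replicate 1 overlap with the other group. The log2 fold change was -0.13 (SE 0.05, edgeR adjusted p = 0.079). The gene was called lower without 4-OHT replicate 1 (edgeR adjusted p = 0.0078) and without control replicate 2 (0.0025). It was also called lower with no low-count filter (edgeR adjusted p = 0.038) and with a replicate block (0.049). Over all alternatives its edgeR, DESeq2 or limma-voom adjusted p ran from 0.0025 to 0.377. mt-Nd4, encoded on the same bicistronic transcript, had 6579, 6631 and 6907 against 6842, 6461 and 6234 reads (log2 fold change -0.06, edgeR adjusted p = 0.23).

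The other mitochondrial genes lay closer to 0 on the log2 scale. The remaining complex I genes were mt-Nd5 at -0.04, mt-Nd6 at -0.034, mt-Nd3 at -0.012, mt-Nd1 at -0.0082 and mt-Nd2 at 0.0019. mt-Cytb, the haem-bearing core of complex III, was at 0.011. The catalytic core of complex IV was at -0.012 for mt-Co1, 0.0019 for mt-Co2 and 0.014 for mt-Co3. mt-Atp6, which forms part of the proton channel of complex V, was at -0.0053, and mt-Atp8 at -0.038. Their edgeR adjusted p-values were 0.52 or more, and the signs of the smallest values turned with the scaling or with the library left out.

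Mitochondrial genes have no introns, so their levels can be compared per length. In control, mt-Co1 stood highest at 2752 ± 63.6 CPM per kilobase of gene (SD, n = 3), followed by mt-Co2 at 2529 ± 27.7 and mt-Atp6 at 2432 ± 102. A middle group held mt-Co3 at 1520 ± 57.4, mt-Cytb at 1514 ± 23.8, mt-Nd1 at 1342 ± 18.8 and mt-Atp8 at 1243 ± 118 CPM per kilobase. Lower levels belonged to mt-Nd4 at 834 ± 22.1, mt-Nd2 at 752 ± 6.0, mt-Nd4l at 638 ± 51.9, mt-Nd3 at 479 ± 21.1, mt-Nd5 at 468 ± 18.1 and mt-Nd6 at 345 ± 14.7. The order by mean was the same after 4-OHT. The ranges over 6 libraries overlapped for mt-Co2 with mt-Atp6, mt-Co3 with mt-Cytb, mt-Nd1 with mt-Atp8, mt-Nd4 with mt-Nd2, and mt-Nd3 with mt-Nd5. Within each library mt-Nd4 lay above mt-Nd2. The order within each of the other pairs changed between libraries, so those neighbours cannot be ordered. The highest level was 7.97-fold the lowest. Selection of polyadenylated RNA can take mitochondrial messages unequally, since their tails are short or, for mt-Nd6, mostly absent, and its part in this order was not tested.

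**Figure D4:**
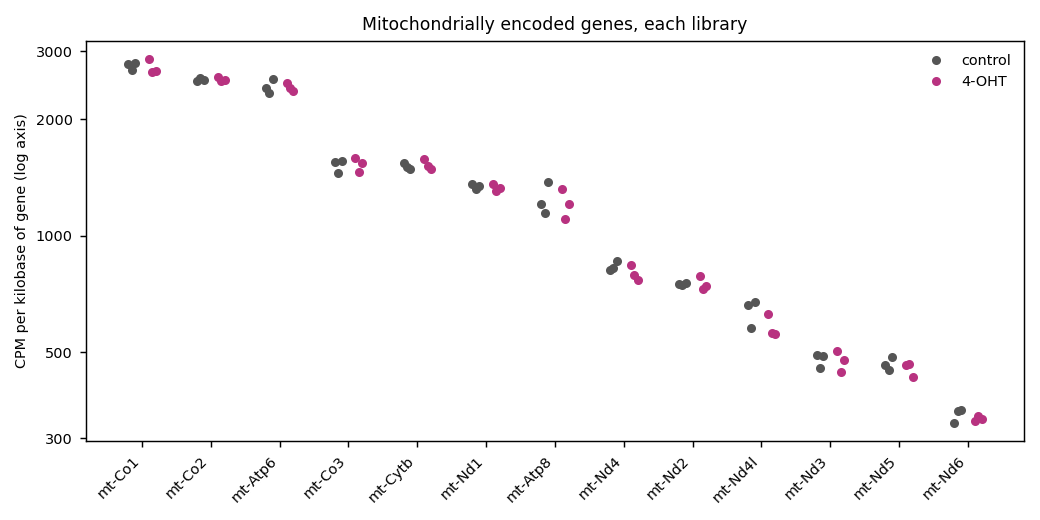
Level of the 13 mitochondrially encoded members in each library, in CPM per kilobase of gene (vertical axis, logarithmic), ordered by the control mean. Grey points are control and magenta points 4-OHT libraries, and the colours overlap for each gene while the levels fall from mt-Co1 to mt-Nd6.

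Overlapping genes limit some of these levels. mt-Atp8 and mt-Atp6 share 43 bases of the same transcript, and their ratio per length was 0.458 to 0.541 over the 6 libraries. mt-Nd4l and mt-Nd4 share 7 bases, with a ratio of 0.811, 0.700 and 0.784 in control and 0.745, 0.710 and 0.727 after 4-OHT. mt-Nd5 and mt-Nd6 lie on opposite strands and share 14 bases, with a ratio of 1.28 to 1.41. The counting is not stated to use strand, so reads of mt-Nd6 and reads from the opposite strand over it cannot be told apart.

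Several complex IV subunits exist as paralogs with widespread or tissue-restricted expression. The widespread forms other than Cox4i1 were counted in each library, and the restricted forms had 0 to 9 reads. Read counts are not per transcript length, so they are given to show detection and to compare libraries within a gene. Cox6a1, the widespread form, had 611 to 674 reads in control and 628 to 697 after 4-OHT. The heart and muscle form Cox6a2 was listed at 0 in all 6 libraries, and its span overlaps that of Itgad, which had 31 to 45 reads. Cox8a had 616 to 651 and 647 to 690 reads, whereas Cox8c was at 0 and Cox8b had 1 read in 1 library. A count of 0 in a library allows up to 3 reads, or 0.505 to 0.514 CPM, by counting error alone. This bound does not cover reads that the counting may have dropped, which was not tested for these genes. Cox6b1 had 398 to 450 and 383 to 426 reads, against 1 read in 1 library for the testis form Cox6b2. Cox7b had 300 to 335 and 298 to 314 reads, against 5 to 9 for its paralog Cox7b2. Cox7a2 had 256 to 277 and 263 to 302 reads and Cox7a2l 531 to 611 and 540 to 567, while the muscle form Cox7a1 had 2 to 7. Among these forms, the tested ones (Cox6a1, Cox8a, Cox6b1, Cox7b, Cox7a2 and Cox7a2l) had edgeR adjusted p-values of 0.33 or more.

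Outside complex IV, Ndufa4 had 645 to 692 reads in each library and its hypoxia-linked paralog Ndufa4l2 had 1 read in 1 library. The genes Atp5g1, Atp5g2 and Atp5g3 encode the same mature ring subunit of complex V behind different import sequences. Atp5g3 had 933 to 1067 reads in control and 1028 to 1104 after 4-OHT, Atp5g2 had 406 to 455 and 356 to 448, and Atp5g1 had 212 to 265 and 215 to 253. Groups overlapped in all 3, with log2 fold changes of 0.065, -0.084 and -0.046. Reads of near-identical stretches of these paralogs may have been split by the counting.

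**Figure D5:**
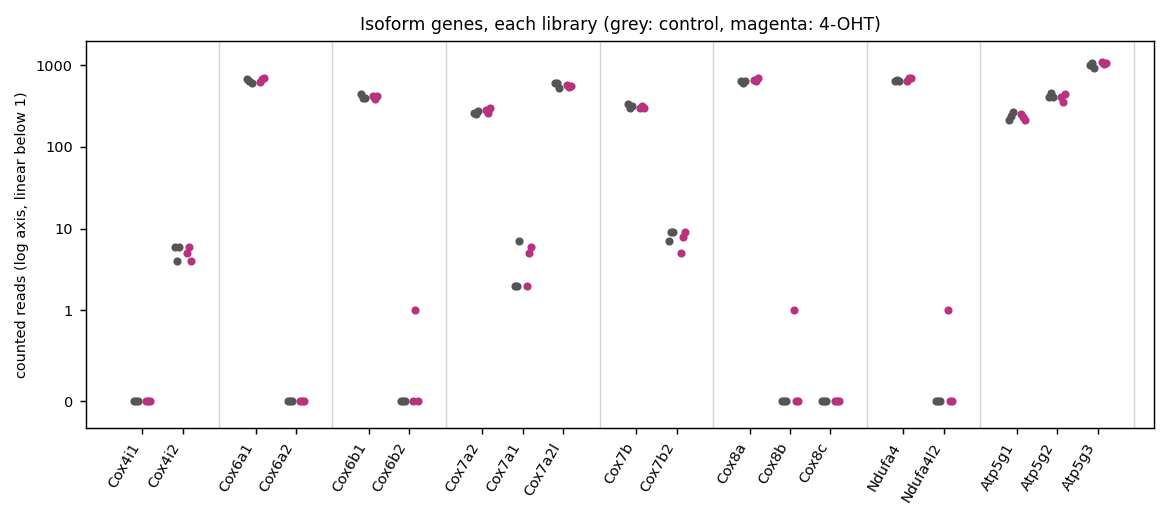
Counted reads (vertical axis, logarithmic above 1 and linear below) of paralogous members in each library, grey for control and magenta for 4-OHT. Widespread forms lie at 212 reads or more, the tissue-restricted forms lie between 0 and 9, and Cox4i1 is listed at 0 in all libraries.

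Cox4i1 and Ndufa13, which nearly every cell uses, were listed at 0 in all 6 libraries. One is Cox4i1, the widespread form of a subunit of complex IV, whose restricted paralog Cox4i2 had 4 to 6 reads. Its neighbours on chromosome 8 in the RefSeq table, Emc8 at 137 bases and Gm27021 at 82 bases, were listed at 0 as well. The other is Ndufa13, an accessory subunit of complex I on the same chromosome, at 69894163 to 69902558, overlapped by Tssk6 with 0 to 6 reads. Gatad2a, 4510 bases away, had 1285 to 1474 reads. No level is given for Cox4i1 or Ndufa13. Together with Cox6a2, Cox8c, Cox8b, Cox6b2, Ndufa4l2, Cox4i2, Cox7a1 and Cox7b2 they are the 10 members that did not pass the low-count filter.

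Genes around the complexes were called at rates near or below the background, with small sets as exceptions. Other subunits and electron carriers, among them cytochrome c, had 0 of 11 called by edgeR, DESeq2 or limma-voom (1 higher at an unadjusted p under 0.05 in edgeR), and the most abundant, Gpd2, had a log2 fold change of -0.0007. Coenzyme Q synthesis had 0 of 12 called by the same 3 tools (1 lower at an unadjusted p under 0.05 in edgeR), with Pdss2 at -0.065. Assembly factors of complex I had 0 of 14, of complex III 0 of 6 and of complex V 0 of 4 called by the 3 tools, with 0 at an unadjusted p under 0.05 in edgeR. Their most abundant members by CPM were Acad9 at 0.0053, Uqcc1 at 0.055 and Tmem70 at 0.16. Median log2 fold changes of these 5 lists were -0.0007, 0.0049, -0.07, 0.01 and -0.091, beside 0.0005 for all genes.

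Assembly factors of complex II had 1 of 3 lower. Acn9, also called Sdhaf3, helps to insert the iron-sulphur subunit of succinate dehydrogenase. Its reads were 546, 503 and 552 in control and 469, 470 and 439 after 4-OHT, which is -0.23 on the log2 scale (SE 0.06, edgeR adjusted p = 0.0027), so it fell while Sdhd rose. The call held with each library left out in turn (edgeR adjusted p up to 0.034) and was lost with DESeq2 (adjusted p = 0.056). Assembly factors of complex IV had 0 lower and 2 higher of 20, with a median of 0.066. Coa3, which takes part in the early synthesis of Cox1, had 201, 189 and 193 against 223, 244 and 245 reads (log2 fold change 0.27, edgeR adjusted p = 0.025). Coa5 had 571, 551 and 568 against 638, 647 and 629 (0.16, edgeR adjusted p = 0.033). In both, all 4-OHT libraries were above control. DESeq2 called neither (adjusted p = 0.22 and 0.26). The Coa3 call was lost without 4-OHT replicates 2 or 3 and without control replicates 2 or 3 (edgeR adjusted p 0.079 to 0.098), and the Coa5 call without any 1 of the 6 libraries (0.051 to 0.127).

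Machinery that expresses mitochondrial DNA gave 0 of 39 genes called by edgeR, DESeq2 or limma-voom (at an unadjusted p under 0.05 in edgeR, 6 lower and 2 higher), with a median of -0.0049. Lrpprc, which stabilises mitochondrial messages, was the most abundant and had a log2 fold change of -0.12 (edgeR adjusted p = 0.14). Mitochondrial ribosomal proteins had 1 lower and 0 higher of 72, a median of -0.014, and 4 further genes listed at 0. Mrpl51 was the gene called, with 225, 283 and 252 against 215, 205 and 196 reads (log2 fold change -0.32, edgeR adjusted p = 0.0053). Its groups did not overlap, but without control replicate 2 the edgeR adjusted p was 0.129. DESeq2 called 0 of the 72 (at an unadjusted p under 0.05, 2 lower and 1 higher).

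Among the ribosomal and transfer RNAs of mitochondrial DNA 3 were tested and 0 called (edgeR, DESeq2 and limma-voom, 1 lower at an unadjusted p under 0.05 in edgeR). mt-Rnr2, the large ribosomal RNA, had 2161, 2475 and 2914 reads in control and 3299, 3241 and 3043 after 4-OHT. Groups did not overlap, and the control libraries differed more from each other than the 4-OHT libraries did. Its log2 fold change was 0.33 (SE 0.12, edgeR adjusted p = 0.246), and it was called without control replicate 1 (0.0033) or control replicate 3 (2.7e-09, both edgeR adjusted p). How much of a ribosomal RNA stays after selection of polyadenylated RNA was not tested.

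Regulators of respiratory genes had 2 lower and 0 higher of 13 (15.4%, beside 9.79% of all tested genes), with a median of -0.06. At an unadjusted p under 0.05 in edgeR, 2 were lower and 1 higher. CPM of the groups did not overlap for 3 that were higher and 2 that were lower, beside 12.1% and 12.2% of all genes. Log2 fold changes in this list ran from -0.26 to 0.83. Pprc1, a coactivator related to PGC-1, had 924, 886 and 901 reads in control and 806, 780 and 813 after 4-OHT. All 4-OHT libraries were below control, at -0.19 on the log2 scale (SE 0.05, edgeR adjusted p = 0.0016, DESeq2 adjusted p = 0.033). Nrf1, which encodes nuclear respiratory factor 1, had 313, 322 and 346 against 269, 306 and 256 reads (log2 fold change -0.26, SE 0.07, edgeR adjusted p = 0.012, DESeq2 adjusted p = 0.147). That call was lost without 4-OHT replicate 1 (edgeR adjusted p = 0.052), 4-OHT replicate 3 (0.092) or control replicate 3 (0.112). Of the 10 nuclear members whose window held the NRF1 letters, edgeR, DESeq2 and limma-voom called 0, and 1 reached an unadjusted p under 0.05 in edgeR. On the log2 scale 6 of them were below 0 and 4 above, from -0.12 for Atp5k to 0.068 for Ndufa6, with a median of -0.035, beside 0.020 for all tested nuclear members. The 16 tested members with the ETS letters had 5 below 0 and 11 above, with a median of 0.044. The 11 with the YY1 letters had 4 below 0 and 7 above, with a median of 0.025. Whether the lower Nrf1 level bears on the members with NRF1 letters was not tested.

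The tricarboxylic acid cycle and pyruvate entry, which feed the chain with NADH and succinate, had 1 lower and 2 higher of 24, with a median of 0.0014. Pdk2 and Pdk1, kinases that switch off pyruvate dehydrogenase, differed in direction. Pdk2 had 43, 49 and 44 reads in control and 27, 33 and 25 after 4-OHT (log2 fold change -0.69, SE 0.20, edgeR adjusted p = 0.015). Pdk1 had 326, 284 and 313 against 375, 375 and 349 (0.23, SE 0.07, edgeR adjusted p = 0.015). In neither gene did the groups overlap. DESeq2 called neither (adjusted p = 0.157 and 0.183). The Pdk2 call was lost without 4-OHT replicates 1 or 3 or control replicate 2 (edgeR adjusted p 0.058, 0.074 and 0.073). The Pdk1 call was lost without 4-OHT replicates 1 or 2 or control replicate 2 (0.064, 0.076 and 0.152). Idh3b, a subunit of isocitrate dehydrogenase named after its value was seen, was the third gene called, at 0.17 (edgeR adjusted p = 0.028). DESeq2 did not call it (adjusted p = 0.236). Its call was lost without 4-OHT replicates 2 or 3 (edgeR adjusted p 0.078 and 0.117) and without control replicates 1, 2 or 3 (0.052, 0.113 and 0.084).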

How the data were processed

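The 6 RNA-seq libraries were grouped by their labels. Per the labels' protocols, RNA was DNase-treated and the NEBNext Ultra kit was used. The deposited count table gives raw counts of reads for each Ensembl gene. The authors' deposited table holds log2 values (log2 fold change and log2 mean CPM) and p-values with an FDR, per the file headers. The submitters' processing notes name edgeR, bedtools 2.26.0, Bowtie2, Bowtie 1.1.2 and TopHat2 2.1.0 without roles, and the builds GRCm38.p6 and mm10. For the counter, its annotation and its strand setting, nothing is given in the sources used here.

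Of 38951 lines, 27 repeats were dropped. The test used edgeR 4.0.16 in R 4.3.3: filterByExpr (minimum count 10, minimum total 15), which left 13355 genes, TMM scaling (factors 0.994 to 1.01), and the robust quasi-likelihood F test, two-sided, with Benjamini-Hochberg adjustment over all genes tested and a threshold of 0.05. CPM use TMM-scaled totals. The biological coefficient of variation was 2.58%. Alternatives were DESeq2 1.42.0, limma-voom (limma 3.58.1), other scalings and filters, a replicate block, and each library left out. On counts simulated for the 13355 genes of this comparison, 98% of genes changed 2-fold were recovered, and 14 of 13155 unchanged genes were called. The simulation gave all genes the same dispersion (0.000663) and changed only genes with an expected count of 20 or more. Real genes differ in their spread, so recovery may be lower and false calls more frequent in the data. No pair of libraries agreed within sampling noise (within groups, chi-square divided by its degrees of freedom was 1.26 to 1.48).

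Members and lists were chosen with earlier results of these data known, so lists are described by counts and medians with no test. Named genes were Lin9, every called member, every mitochondrial member, the 2 nuclear members of each complex with the highest mean CPM, paralog sets, members that failed the filter, and for each other list the 2 called genes with the smallest p or, where none was called, the most abundant. All others were named after their values were seen. An item that the rule names is not reported here but remains in the counts. Gene coordinates and promoter windows come from RefSeq tables of GRCm38.p6.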

Additional observations from a re-analysis of the deposited data

How the results depend on the processing

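Among the alternatives run, the calls of the members depended on the tool and on single libraries. DESeq2 called 367 genes lower and 209 higher over all genes, against 691 and 616, and 0 members higher. With 1 library left out, 403 to 542 genes were higher over all genes (403 without control replicate 1, 429 without 4-OHT replicate 2), 1 to 2 members were higher and 0 to 1 lower. With no low-count filter 1 member, mt-Nd4l, was lower. With a replicate block 1 member was lower too (mt-Nd4l, edgeR adjusted p = 0.049), 3 were higher, and 665 and 579 genes were lower and higher over all genes. Over all tested genes, deviations of same-numbered libraries from their group means showed correlations of -0.01, 0.01 and -0.026. Counting noise makes up much of such deviations, so these values show no pairing by number but cannot exclude a weak one.

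The median of complex II was 0.10 with library totals alone and 0.082 to 0.11 with 1 library left out, and that of complex I was -0.0084 to 0.039. Fold changes near 0 changed sign, and the cause was not tested. With library totals alone mt-Nd1 was at 0.0012, mt-Atp6 at 0.0041, Atp5b at 0.0067 and Gpd2 at 0.0088. With DESeq2 size factors mt-Nd2 was at -0.00054 and mt-Co2 at -0.00058, and with DESeq2 also at -0.00054 and -0.00058. With no low-count filter mt-Co2 was at -1.05e-05. With 1 library left out, log2 fold changes ran from -0.024 to 0.0073 for mt-Nd1, -0.031 to 0.026 for mt-Nd2, -0.054 to 0.033 for mt-Nd3, -0.015 to 0.028 for mt-Cytb, -0.048 to 0.0072 for mt-Co1, -0.0079 to 0.011 for mt-Co2, -0.017 to 0.047 for mt-Co3, -0.032 to 0.028 for mt-Atp6 and -0.10 to 0.041 for mt-Atp8. They ran from -0.0033 to 0.068 for Sdhb, -0.012 to 0.060 for Sdha, -0.054 to 0.0050 for Uqcrc2, -0.015 to 0.012 for Atp5b, -0.069 to 0.022 for Cox6b1, -0.13 to 0.033 for Atp5g1, -0.17 to 0.0046 for Atp5g2, -0.036 to 0.074 for Acad9 and -0.042 to 0.043 for Gpd2.

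Over the named genes and all alternatives, 607 values kept direction and side of the threshold, 40 lost a call, 6 gained one and 47 changed sign. Depth limits the members with few reads: Ndufb2 at 22 to 44 reads and Atp5s at 28 to 38 have the widest intervals. Nuclear genes were not compared in level with each other, since only genomic spans, not transcript lengths, were at hand.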
